A study of Mus musculus with 6 samples.

Results

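The genes described here are 8 enzymes of heme synthesis, Alas1, Alas2, Alad, Uros, Urod, Cpox, Ppox and Fech, together with Tspo2, an erythroid member of the translocator protein family. They were chosen by name, as every non-control probe whose gene name is one of these symbols or an earlier symbol of it, and they do not cover every step of the pathway. All 9 were found among the 22221 genes named on the array and all 9 were among the 14422 genes whose signal passed the filter on dim probes. They were read by 11 probes, each well above background on all 6 arrays, so no value of these 9 genes is a bound.

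The samples were cells of the G1E-ER-GATA-1 line. These are mouse erythroid progenitors without Gata1 of their own that carry GATA-1 joined to the hormone-binding part of the estrogen receptor, and β-estradiol switches this protein on. One group of 3 arrays received non-targeting control siRNA and the other group of 3 arrays received siRNA against Setd8 (SetD8, current symbol Kmt5a), a histone H4 lysine methyltransferase. Both groups had a first transfection at 0 h and a second at 24 h, were given β-estradiol for 24 h and were harvested at 48 h, so every array comes from cells with active GATA-1 and no array comes from cells without it. The cells were kept in medium with erythropoietin and Kit ligand. Since the labels name no separate cultures, the p-values rest on a spread between arrays that may be technical.

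Heme is made in a chain of enzymes that begins and ends in the mitochondrion. The aminolevulinate synthases, ubiquitous Alas1 and erythroid Alas2, make the first precursor from glycine and succinyl-CoA. Alad, Uros and Urod then work in the cytosol to build and trim the porphyrin ring, and Cpox, Ppox and Fech finish it in the mitochondrion, where Fech inserts the iron. In red cell precursors the pathway is induced together with globin during maturation, and GATA-1 is a known activator of Alas2. Tspo2 belongs to the translocator protein family of cholesterol- and porphyrin-binding membrane proteins and is known for its expression in erythroid cells.

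The bases just upstream of the start site are shown for 3 of the genes. Tspo2 is shown as the gene on which the comparison turns, and Alas2 as the erythroid first enzyme under known GATA-1 control. Cpox is shown as the gene with the lowest difference between the groups when each gene is read by its brightest kept probe. The sequences are from RefSeq, build GRCm38.p6, 250 bases up to the start site, written 5′ to 3′ on the gene's strand, and capitals mark matches to the GATA motif. The motif was searched on both strands as 4 words: AGATAA with its variant AGATAG, and in the same way TGATAA with its variant TGATAG.
Alas2 (chrX:150547167-150547416, plus strand): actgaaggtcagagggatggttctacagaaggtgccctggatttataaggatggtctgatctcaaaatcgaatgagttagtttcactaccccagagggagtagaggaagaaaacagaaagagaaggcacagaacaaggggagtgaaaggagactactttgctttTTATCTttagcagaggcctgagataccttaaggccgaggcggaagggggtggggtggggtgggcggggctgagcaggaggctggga
Cpox (chr16:58669958-58670207, plus strand): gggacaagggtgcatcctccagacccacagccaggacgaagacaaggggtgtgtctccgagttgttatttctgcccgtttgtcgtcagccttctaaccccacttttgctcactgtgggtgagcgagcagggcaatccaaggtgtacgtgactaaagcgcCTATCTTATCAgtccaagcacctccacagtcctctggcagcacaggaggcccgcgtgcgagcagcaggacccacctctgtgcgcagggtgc
Tspo2 (chr17:48451502-48451751, minus strand): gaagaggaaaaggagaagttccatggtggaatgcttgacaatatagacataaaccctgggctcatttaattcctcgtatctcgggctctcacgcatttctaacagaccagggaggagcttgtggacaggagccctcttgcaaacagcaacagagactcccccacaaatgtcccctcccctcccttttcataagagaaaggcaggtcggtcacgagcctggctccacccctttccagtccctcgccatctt

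The Alas2 window held 1 match 86 bases before the start, written TTATCT here, which is the word AGATAA on the other strand. The Cpox window held 2 overlapping matches in 1 run, beginning 91 and 86 bases before the start. No match was found in the Tspo2 window, nor in the windows of Alas1, Alad, Urod and Ppox, while a second start site of Uros had 2 matches. This motif was present in 26.5% of the 32851 promoter windows of the same length, so a match in a single gene is a frequent event, and the lack of one says only that these letters are not in the window. The CACCC-type motif CCNCNCCC, searched on both strands and found in 45.9% of windows, had 2 matches in the Tspo2 window, 80 and 75 bases before the start, and 4 in the Alas2 window, some of them overlapping. Promoter windows were matched for 8 of the 9 genes, all except Fech.

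Depletion was read first at the targeted gene. On the brighter Setd8 probe controls 1, 2 and 3 had log2 levels of 11.49, 11.57 and 11.23 after normexp background correction and quantile normalization. SetD8 arrays 1, 2 and 3 had 9.58, 9.26 and 9.24. Setd8 was 4.20-fold lower in the SetD8 group (limma adjusted p = 0.00846), and a second Setd8 probe was lower on all 3 SetD8 arrays too. At the 75th percentile scaling Setd8 differed by -2.24 without passing (adjusted p = 0.682). With the slide of each array as a block its limma adjusted p was 0.00736 at that scaling and 0.0411 after normexp and quantile normalization. With 1 array left out after normexp and quantile normalization it was below 0 in all 6 fits, and the adjusted p was above 0.05 without control 1 (0.0609), SetD8 1 (0.0565), SetD8 2 (0.0785) or SetD8 3 (0.0657). The control arrays stood further apart than the SetD8 arrays: 40.2% to 82.5% of their spots were well above background, against 60.3% to 68.6%, and their correlations at the 75th percentile scaling were 0.87 to 0.962, against 0.98 to 0.986. The erythroid markers Epor, Klf1, Slc4a1 and Hba-a1 were each well above background on all 6 arrays.

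Tspo2 was the 1 gene of the 9 that passed the test, and it did so in 1 of the 2 scalings used here. Its mean level was about 2-fold higher after SetD8 siRNA, with each SetD8 array above each control array, and 0 of the 8 enzymes passed in either scaling. In log2 of the processed signal minus each array's 75th percentile, the main setting, 0 of 14422 genes passed limma at an adjusted p of 0.05 (0% higher and 0% lower), 445 genes had an unadjusted p under 0.05 (3.09%), and 0 of the 9 members passed. After normexp and quantile normalization 211 genes were higher (1.46%) and 34 lower (0.236%), and 1 of the 9, Tspo2, was among the higher ones.

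The Tspo2 probe lies at chr17:48587807-48587866 on mm9, the build of the array files. Controls 1, 2 and 3 had processed intensities of 2162, 2522 and 1847 units, and SetD8 arrays 1, 2 and 3 had 4499, 2671 and 3593 units. The lowest SetD8 array was above the highest control array before any scaling between arrays. With the 75th percentile scaling the log2 levels were 3.69, 4.05 and 2.92 on the controls and 4.39, 4.47 and 4.43 on the SetD8 arrays. The SetD8 arrays agreed closely with each other (SD 0.04), while the controls varied by more than 1 log2 unit between control 2 and control 3 (SD 0.58). The difference was 0.88 ± 0.40 (SE, 95% interval -0.07 to 1.82, limma adjusted p = 0.951).

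After normexp and quantile normalization the Tspo2 levels were 10.86, 10.67 and 11.03 on the controls and 11.81, 11.88 and 11.84 on the SetD8 arrays. The groups did not overlap, and the control spread was smaller (SD 0.18). The difference was 0.99 ± 0.13 (SE), a 1.99-fold higher level with a 95% interval of 1.61 to 2.45 (limma adjusted p = 0.0241). Slide 1 held control 1 and SetD8 arrays 1 and 2, slide 2 held control 2 alone, and slide 3 held control 3 and SetD8 array 3. Since slide 2 held no SetD8 array, control 2 adds nothing to any difference taken with the slide as a block. Within slide 1 the Tspo2 difference was 0.98 and within slide 3 it was 0.81, each from a single control array. With the slide as a block it was 0.91 with an adjusted p of 0.0929, a fit in which 14 genes of all tested passed (0.0971%).

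Leaving out an array moved the Tspo2 difference little and its call often. The difference stayed between 0.90 and 1.08, with an adjusted p of 0.0489 without control 2 and 0.022 without control 3, and was not called without control 1 (0.161), SetD8 1 (0.129), SetD8 2 (0.141) or SetD8 3 (0.119). In those 4 fits 0, 0, 0 and 5 of the 14422 genes passed, against 108 without control 2 and 207 without control 3. Under the 75th percentile scaling, leaving out control 3 gave the smallest value, 0.56, and leaving out control 2 the largest of these, 1.13. The difference was above 0 in every setting tried over several arrays of each group, from 0.38 with each array's median subtracted to 1.13 without control 2.

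**Figure D1:**
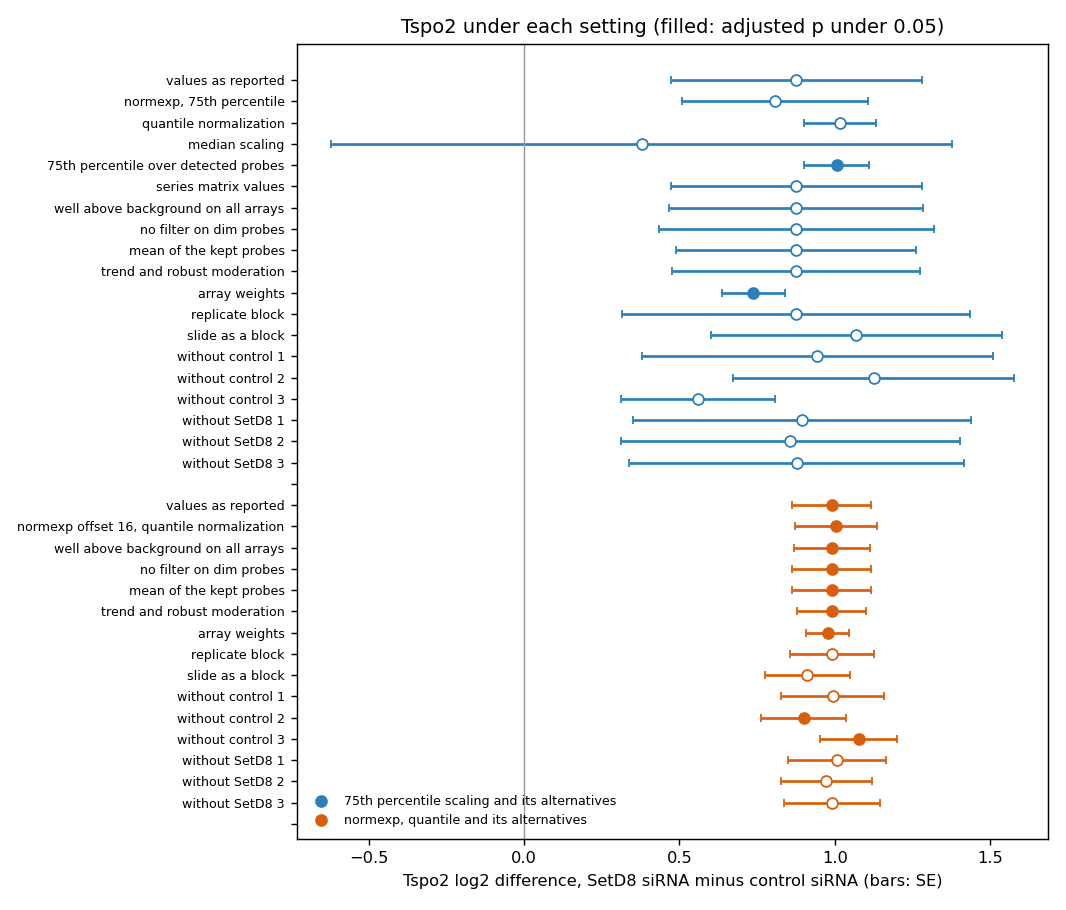
Log2 difference of Tspo2, SetD8 siRNA minus control siRNA (horizontal axis), under each setting (rows), with bars of 1 SE; blue marks the 75th percentile scaling and its alternatives, orange normexp with quantile normalization and its alternatives, and filled points an adjusted p under 0.05. Every point lies above 0, between 0.38 and 1.13, while the fill changes from setting to setting.

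Tspo, the widely expressed relative of Tspo2 in the outer mitochondrial membrane, was measured on the same arrays. Its levels after normexp and quantile normalization were 11.46, 11.32 and 11.70 on the controls and 12.02, 12.04 and 12.07 on the SetD8 arrays. Every SetD8 array was above every control, as in 13.7% of all genes. The difference of 0.55 (95% interval 0.24 to 0.86) did not pass the test (limma adjusted p = 0.101). The 75th percentile scaling gave 0.42, with an adjusted p of 0.951. There the groups overlapped, with control 2 at 4.52 above SetD8 arrays 1 and 2 at 4.43 and 4.46.

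The first step of the pathway showed no called difference in either of its enzymes. Alas2, the erythroid synthase, had levels of 14.75, 14.57 and 14.92 on the controls and 14.67, 14.77 and 14.89 on the SetD8 arrays after normexp and quantile normalization. The SetD8 arrays lay inside the range of the controls. The difference was 0.03 (95% interval -0.30 to 0.35, limma adjusted p = 0.954), an interval that runs from 0.812 to 1.28 times the control level. The 75th percentile scaling gave -0.16 (95% interval -1.08 to 0.75), with all 3 SetD8 arrays again inside the controls' range of 6.98 to 7.91.

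Alas1, the synthase of all tissues, had levels of 10.06, 10.02 and 10.05 on the controls and 10.20, 10.38 and 10.33 on the SetD8 arrays. The controls lay close together (SD 0.02), and all 3 SetD8 arrays were above them. The difference of 0.26 (95% interval 0.01 to 0.52) did not pass after adjustment (limma adjusted p = 0.303, unadjusted p = 0.0458). With the 75th percentile scaling it was 0.09 and the groups overlapped. A second, dimmer Alas1 probe differed by 0.13 after normexp and quantile normalization and by 0.41 at the 75th percentile scaling, and its groups overlapped in both.

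The cytosolic steps gave small values. Alad, which joins the precursors into the pyrrole porphobilinogen, had levels of 15.13, 15.10 and 15.23 on the controls and 15.30, 15.09 and 15.33 on the SetD8 arrays, which overlap. Its difference was 0.09 (95% interval -0.20 to 0.37, limma adjusted p = 0.798). Urod, which trims the side chains of uroporphyrinogen, had levels of 15.89, 15.82 and 15.84 on the controls and 16.16, 15.97 and 16.14 on the SetD8 arrays. Every SetD8 array was above every control, with a difference of 0.24 (95% interval -0.02 to 0.50) that did not pass (limma adjusted p = 0.36).

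Uros, which closes the ring as uroporphyrinogen III, was read by 2 probes that disagreed in sign. The brighter probe, at chr7:140878069-140878128 on mm9, had levels of 12.27, 12.28 and 12.27 on the controls and 12.56, 12.35 and 12.70 on the SetD8 arrays, a difference of 0.26 (95% interval -0.04 to 0.56, limma adjusted p = 0.391). The dimmer probe, at chr7:140883818-140883876, gave a difference of -0.34 on the same scale (SD 0.47 among the controls, 0.15 among the SetD8 arrays). The brighter probe separated the groups and the dimmer one did not (exact two-sided permutation p = 0.1, the smallest that 3 against 3 arrays allow, and p = 0.3). On the 75th percentile scale the dimmer probe read -0.45, 0.32 and -0.88 on the controls and -1.14, -0.84 and -0.71 on the SetD8 arrays, which overlap. There the brighter probe differed by 0.06 and the dimmer one by -0.56, so no direction can be given for the gene as a whole. The dimmer probe was assigned to Uros by its symbol and the brighter one by accession. Processed intensities were 67.39 to 189.4 units on the dimmer probe and 3530 to 7949 units on the brighter one.

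The mitochondrial end of the pathway was mixed. Cpox, which turns coproporphyrinogen into protoporphyrinogen, had levels of 13.96, 13.94 and 14.07 on the controls and 13.60, 13.86 and 13.96 on the SetD8 arrays. The highest SetD8 array overlapped the controls. With each gene read by its brightest kept probe, Cpox was the 1 gene of the 9 with a difference below 0, -0.19 (95% interval -0.51 to 0.13, limma adjusted p = 0.594). It was also the lowest at the 75th percentile scaling, at -0.45 (95% interval -1.40 to 0.49), although the comparison within slide 3 gave 0.34 there.

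Ppox, which oxidises protoporphyrinogen, had levels of 11.94, 11.89 and 12.17 on the controls and 12.05, 12.52 and 11.92 on the SetD8 arrays. SetD8 array 2 stood above the rest and the others overlapped, so that the difference was 0.16 with the widest interval of the 9 (95% interval -0.29 to 0.61, limma adjusted p = 0.767). Within slide 1 it was 0.35 and within slide 3 it was -0.25. Fech, the ferrochelatase, had levels of 14.87, 14.69 and 14.73 on the controls and 15.10, 14.93 and 14.99 on the SetD8 arrays. The groups did not overlap, and the difference of 0.24 (95% interval -0.03 to 0.51) did not pass (limma adjusted p = 0.377).

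**Figure D2:**
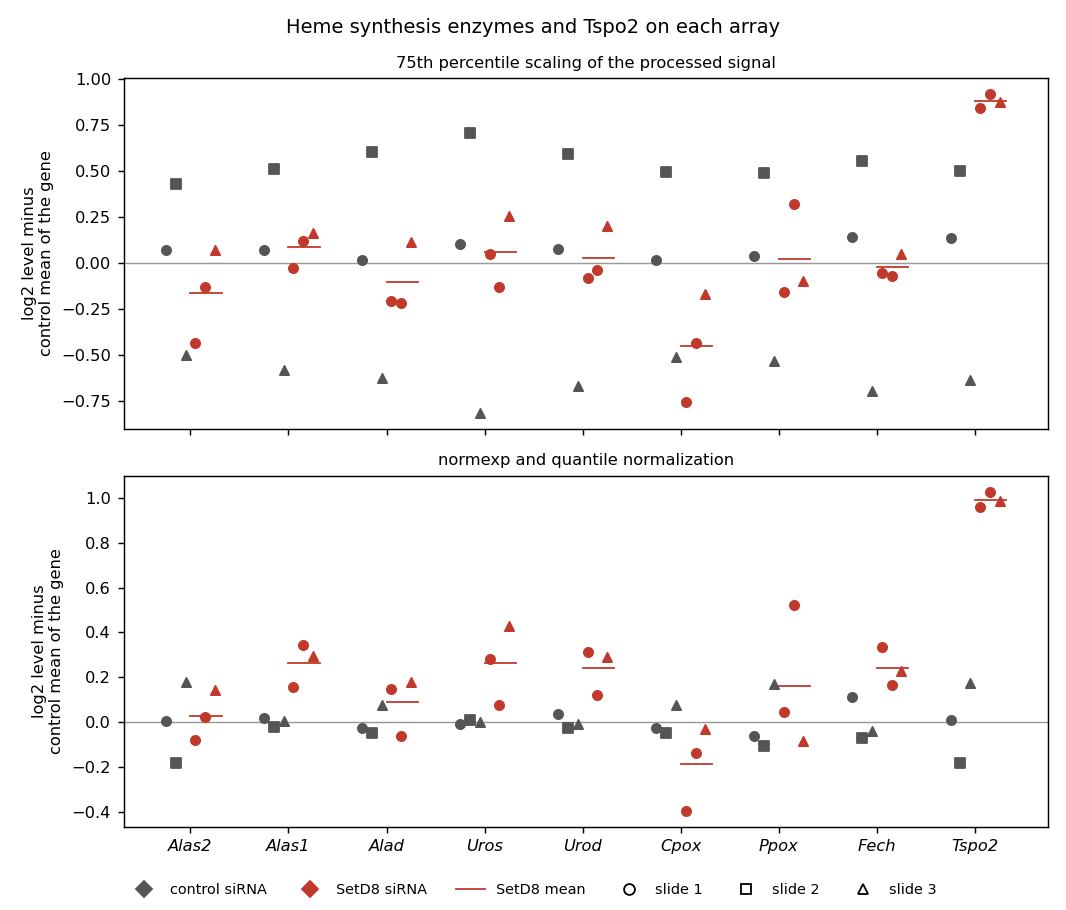
Log2 level of each gene on each array minus the mean of its controls (vertical axis, log2 units), with the top panel at the 75th percentile scaling and the bottom panel after normexp with quantile normalization; grey is control siRNA, red SetD8 siRNA, the red line the SetD8 mean, and the marker shape the slide. In the top panel control 2 is the highest and control 3 the lowest control for all 9 genes, while in the bottom panel Tspo2 has a SetD8 mean 0.99 above its controls and the SetD8 means of the 8 enzymes lie between -0.19 and 0.26.

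The 75th percentile scaling left the remaining enzymes near 0 with wide intervals. Alad differed by -0.10 (95% interval -1.08 to 0.88), Urod by 0.03 (-0.96 to 1.02), Ppox by 0.02 (-0.92 to 0.96) and Fech by -0.02 (SE 0.42), with limma adjusted p-values of 0.969 to 0.993. For Urod the controls read 8.66, 9.18 and 7.92 and the SetD8 arrays 8.50, 8.55 and 8.79, and for Fech they read 7.57, 7.98 and 6.74 against 7.38, 7.36 and 7.48. In both genes the SetD8 arrays lay between control 3 and control 2, and the groups overlapped at this scaling.

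As a set, the 9 genes lay a little above the middle of all genes in one scaling and at the middle in the other. After normexp with quantile normalization 8 of the 9 differences were above 0 (55% of all genes tested were), the median was 0.24 and the median of all genes was 0.03. Alas1 and Uros were read by their brighter probes here, and the count and median depend on that choice. With the mean of the kept probes Uros was at -0.037 and Alas1 at 0.195. In 5 of the 9, Alas1 and Uros (each by its brighter probe only), Urod, Fech and Tspo2, every SetD8 array was above every control array. That arrangement was found in 13.7% of all genes, and in 0 of the 9 was every SetD8 array below (9.96%). The dimmer probes of Alas1 and Uros did not separate the groups. With the 75th percentile scaling 5 of the 9 were above 0 (53.2% of all genes), the median was 0.02 against 0.04 for all genes, and the arrays did not overlap for Tspo2 alone, higher (5.44% of all genes higher, 2.13% lower). With the slide as a block the 8 enzymes lay between -0.18 (Cpox) and 0.29 (Uros) after normexp with quantile normalization. In that fit 0 of them passed, against 0.0971% of all genes. On that scale they lay between -0.24 (Cpox) and 0.35 (Ppox) within slide 1 and between -0.25 (Ppox) and 0.43 (Uros) within slide 3. On the 75th percentile scale the block gave -0.20 (Cpox) to 0.37 (Uros), again with 0 passing, against 130 of all genes (0.901%). There slide 1 gave -0.61 (Cpox) to 0.05 (Ppox), and slide 3 gave 0.34 (Cpox) to 1.07 (Uros). The 9 genes were all read in the same 6 RNA samples and are not independent of one another.

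**Figure D3:**
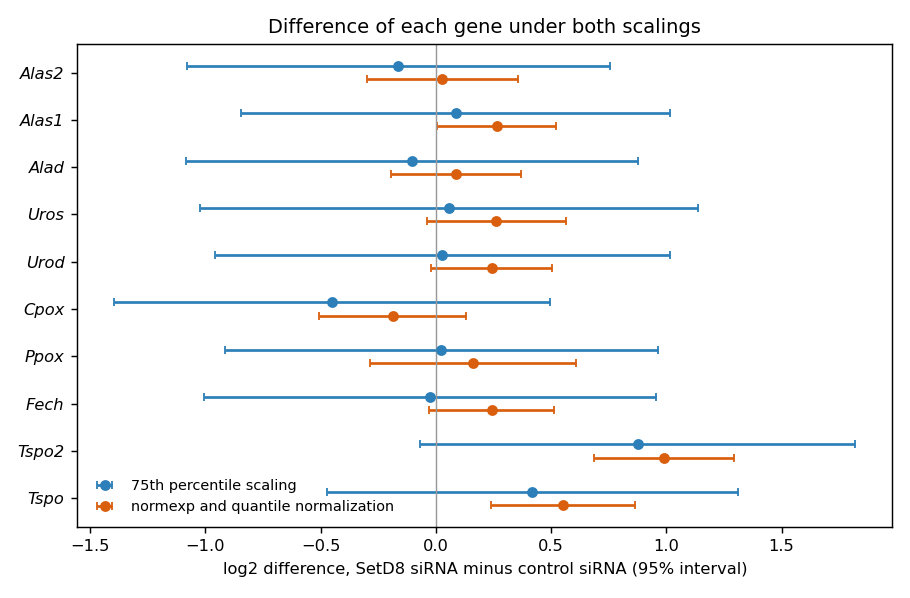
Log2 difference, SetD8 siRNA minus control siRNA (horizontal axis), of the 9 genes and of Tspo, with 95% intervals; blue is the 75th percentile scaling and orange normexp with quantile normalization. The Tspo2 and Tspo intervals lie wholly above 0 after normexp and quantile normalization, from 0.68 and 0.24 upwards, that of Alas1 starts at 0.01, and every interval crosses 0 at the 75th percentile scaling.

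At the 75th percentile scaling the SD of the controls was larger than that of the SetD8 arrays for each of the 9 genes, while after normexp and quantile normalization the SetD8 arrays had the larger SD for Alas1, Alad, Uros, Urod, Cpox and Ppox. With the 75th percentile scaling control 2 was the highest control and control 3 the lowest for all 9 genes, with 0.93 to 1.52 log2 units between them, and these were also the arrays with the lowest and the highest share of spots well above background, 40.2% and 82.5%. The median residual SD over all genes was 0.52 at that scaling. It was 0.21 once normexp and quantile normalization had been applied. The part of this array difference in each gene's result was not tested.

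The genes around the pathway were also read after normexp and quantile normalization, from 3 lists and Tspo. Of 16 measured genes of heme transport and of the mitochondrial partners of the pathway, 0 passed as higher and 0 as lower. Of all genes 1.46% passed as higher and 0.236% as lower, so 0 is near the share of all genes. The median of the list was -0.07 and its range -0.51 to 0.49, the upper end being Flvcr2. The Flvcr2 controls stood far apart, at 6.94, 5.84 and 8.45 (95% interval of the difference -1.01 to 1.99). The lowest p-values in that list were those of Pgrmc1, a heme-binding partner of Fech, at 0.43 (limma adjusted p = 0.199), Slc25a37, the mitochondrial iron importer of erythroid cells, at -0.51 (0.342), Clpx, an unfoldase that acts on aminolevulinate synthase, at -0.27 (0.425), and Sucla2, a subunit of succinyl-CoA synthetase, at 0.23 (0.439). None of these 4 passed the test. Of 14 genes of heme sensing and breakdown 11 were measured, 0 passed as higher and 0 as lower, and the median was -0.04. Its lowest p-values were at Slc48a1, a heme transporter of lysosomes, at 0.39 (0.296), Eif2ak1, the heme-regulated kinase that limits globin translation, at -0.21 (0.417), Mafk at -0.19 (0.638) and its partner Bach1, a repressor released by heme, at -0.16 (0.743).

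Of 15 genes that supply iron-sulphur clusters, the cofactors made beside heme in the mitochondrion, 14 did not pass after normexp and quantile normalization. In this list 0 passed as higher (1.46% of all genes did) and 1 as lower (0.236% of all genes did). The gene that passed as lower was Hspa9, the mitochondrial chaperone that helps clusters leave their scaffold. Its levels were 12.56, 12.62 and 12.54 on the controls and 11.97, 11.81 and 11.64 on the SetD8 arrays, 1.70-fold lower (limma adjusted p = 0.046, 0.135 with the slide as a block). Leaving out any 1 of the 6 arrays ended this call, with differences of -0.84 to -0.68 and adjusted p-values of 0.0566 (without control 3) to 0.242 (without control 1). Nfu1, a cluster carrier, was at 0.54 (adjusted p = 0.0736), Hscb, the co-chaperone of Hspa9, at 0.51 (0.155), and Iscu, the scaffold itself, at 0.47 (0.106). None of these 3 passed. At the 75th percentile scaling 0 genes of the 3 lists passed, as did 0 of all 14422 genes. The medians of the lists were -0.23, -0.21 and -0.17 against 0.04 for all genes.

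**Figure D4:**
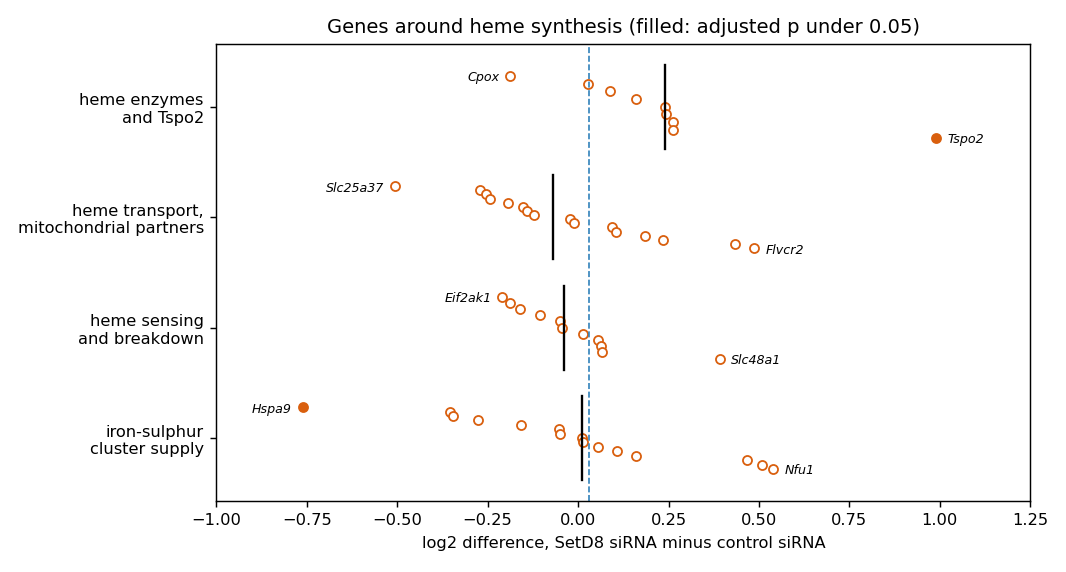
Log2 difference, SetD8 siRNA minus control siRNA, after normexp and quantile normalization (horizontal axis), for the 9 genes and 3 lists around heme synthesis; each point is 1 measured gene, filled at an adjusted p under 0.05, the black bar is the list's median, the dashed line the median of all genes at 0.03, and the lowest and highest gene of each row is named. Tspo2 at 0.99 and Hspa9 at -0.76 are the filled points.

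Genes whose pattern over the 6 arrays was most like that of Tspo2 and of Alas2 were ranked by Pearson's r after normexp and quantile normalization, over 14420 genes. Lasp1 came closest to Tspo2 (r = 0.9987), followed by Oas3, Cpt1c, Flt3l and Prpf6 (0.9968), and 327 genes (2.27%) had r above 0.95. The differences of these 5 between the groups were 0.44 to 1.37. Numa1 came closest to Alas2 (r = 0.9947), followed by Egfl7, Tent5c, Tppp3 and Icmt (0.9793), with differences of 0.00 to 0.09, and 52 genes (0.361%) had r above 0.95. With 6 arrays in 2 groups such values describe these arrays only.

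Markers of other blood cells were read beside Tspo2. For granulocytes and macrophages the summed level of 5 markers, on a linear scale after normexp and quantile normalization, was 1110 to 1610 on the controls and 1880 to 2510 on the SetD8 arrays. Of the 5, Elane, Cd68 and Csf1r were well above background on all arrays, while Mpo was so on 1 and Lyz2 on 3. Cd68 was 0.73 higher (limma adjusted p = 0.0342), a call that 1.46% of all genes had. Csf1r was at 0.97 (adjusted p = 0.25) and Elane at 0.26 (adjusted p = 0.531), and neither passed. The summed levels overlapped between the groups for 5 megakaryocyte markers (7010 to 17000 and 10600 to 24400), for 5 mast cell markers, of which 0 were above background on all arrays, and for 4 lymphoid markers. Among the erythroid markers Slc4a1 was at -1.19 (adjusted p = 0.194), Epor at 0.01 and Klf1 at 0.06. The part of these markers in the Tspo2 result was not tested. In bulk RNA, fewer cells of a type and less RNA per cell cannot be told apart.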

How the data were processed

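Cy3-labelled cRNA of 6 samples was hybridised to 1-colour Agilent arrays. The deposited scanner files hold spot intensity; per the file headers it was made with Feature Extraction 10.7.3.1, and probe positions are on mm9. The series matrix deposited by the authors holds linear intensity too. The submitters' processing notes name limma without a version; what was done between arrays is not stated in the sources used here.

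Of 62976 spots per array, 59305 were not controls. Control spots and outlier spots were removed, and spots of 1 probe were averaged. Genes were named by accession, by symbol or, for 639 probes, by a synonym of a single gene. The names came from a RefSeq gene table (GRCm38.p6), which gave no coordinates here. Probes had to be well above background on every array of 1 group or both, and the kept probe with the highest mean stood for its gene. Values were log2 of the authors' deposited processed signal minus each array's 75th percentile (main setting), or normexp (offset 50) on the mean signal and median local background followed by quantile normalization. The offset makes differences of dim probes smaller than they are. Groups were tested with limma 3.58.1 (R 4.3.3, two-sided, Benjamini-Hochberg adjustment over 14422 genes, threshold 0.05), and single probes had an exact permutation test. The limma code was also run on simulated data with noise drawn independently for each gene and array. That run cannot show how calls behave where an array shifts many genes together. Python 3.11.15, pandas 2.3.3, numpy 2.4.6 and matplotlib 3.10.9 were used for the rest. The number of arrays limits the precision.

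The named genes were the 9 members with every probe, Setd8, Tspo, for each list the genes past the threshold after normexp and quantile normalization and, where fewer than 4 passed, those with the smallest p up to 4, and the 5 genes most like Alas2 and Tspo2. Members, lists and settings were chosen with earlier results of these data known. Some marker genes are not reported here.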

Additional observations from a re-analysis of the deposited data

How the results depend on the processing

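At the 75th percentile scaling 0 of the 9 genes passed, as did 0 of all 14422. With each array left out in turn, 143 of all genes passed without control 2 and 0 without any other array. The count for the 9 was 0 in each of these fits. It became 1 after normexp with quantile normalization (Tspo2) and 1 with the 75th percentile taken over detected probes (Tspo2 at 1.01, adjusted p = 0.0396, 131 genes in all). With limma array weights it became 2 (Tspo2 and Cpox, the latter at -0.50, adjusted p = 0.0198), in a fit whose weights did not fully converge and in which 6077 of all 14422 genes passed. After normexp and quantile normalization 1 of the 9 passed. This became 0 after normexp with the 75th percentile (Tspo2 at 0.81, adjusted p = 0.71, 37 genes in all) and 0 with the slide as a block (14 in all). It became 3 with array weights (Alas1, Uros and Tspo2, 3883 of all 14422 genes), under the same caveat on convergence. With an array left out it was between 0 and 1 (0 to 207 in all). The replicate number as a block also gave 0 (Tspo2 adjusted p = 0.153, 0 genes in all); same-numbered arrays did not deviate together (r of deviations 0.235, -0.267 and -0.368 at the 75th percentile scaling), so the numbers were not taken as a pairing.

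Signs of differences that did not pass the test changed as follows, and the cause was not tested. Against the 75th percentile scaling, normexp with the 75th percentile gave Urod -0.047 and Ppox -0.048. Normexp with quantile normalization gave Alas2 0.027, Alad 0.088 and Fech 0.24. Quantile normalization gave Alas2 0.088, Alad 0.12 and Fech 0.22. Median scaling, which moved the median of all genes to -0.45, gave Alas1 -0.41, Uros -0.44, Urod -0.47 and Ppox -0.48. The 75th percentile over detected probes, which moved it to 0.17, gave Alad 0.027 and Fech 0.11. The mean of the kept probes gave Uros -0.25. Array weights gave Uros -0.058, Urod -0.065 and Ppox -0.02. The slide as a block gave Alas2 0.044, Alad 0.19 and Fech 0.20. Within slide 1 Alas1 was at -0.025, Uros at -0.15 and Urod at -0.14, and within slide 3 Alas2 was at 0.57, Alad at 0.74, Cpox at 0.34 and Fech at 0.75. With an array left out, Alas1 ranged from -0.20 to 0.34, Alas2 from -0.41 to 0.051, Alad from -0.41 to 0.20, Uros from -0.35 to 0.41, Urod from -0.31 to 0.32, Ppox from -0.24 to 0.27 and Fech from -0.37 to 0.25.

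Against normexp and quantile normalization, normexp with the 75th percentile gave Alas2 -0.27, Alad -0.19, Urod -0.047, Ppox -0.048 and Fech -0.035. The mean of the kept probes gave Uros -0.037. Alas2 was at -0.035 with the slide as a block, -0.035 within slide 1 and -0.034 within slide 3, where Ppox was at -0.25. With an array left out Alas2 ranged from -0.063 to 0.12 and Ppox from -0.019 to 0.28.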
